A study of Mus musculus with 6 samples.

Results

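Klf5 and Klf12 are neighbouring genes on mouse chromosome 14, and chromatin accessibility was examined in the interval chr14:99500000-101200000 (mm9), which was chosen as holding both. Their positions were not checked here against an mm9 annotation. All peaks of the deposited ATAC-seq table that overlapped this interval were taken, which gave 58 of 43020 peaks. Inside it lies a run of 5 consecutive peaks, chr14:100666715-100750412, and the other 53 peaks form the rest of the window. The run was picked out because all of its peaks were called less accessible in tumour-derived organoids in an earlier analysis of these counts, so its difference between the groups is given here as a description, without p-values. The other 53 peaks were taken by position, but around that run and in the same libraries, and their calls are also given as a description.

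All 6 libraries came from colon cancer organoids of the AKP genotype, which both groups carry. The naive group was 3 libraries of AKP organoids that had not been in a mouse. The primary tumour group was 3 libraries of organoid lines grown from tumours that AKP organoids had formed after colonoscopic transplantation into the colon of immunocompetent C57Bl6 mice, and the lines had been passaged until the culture held cancer cells alone. Growth in the animal, outgrowth and passage are shared by all lines and cannot be told apart, and nothing in the labels says whether the naive libraries came from separate cultures or the tumours from separate mice, so the spread between replicates may be technical. In ATAC-seq the Tn5 transposase cuts accessible DNA, and the value of a peak is its read count. In bulk libraries, fewer cells with an open site and a less open site in each cell cannot be told apart.

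KLF5 and KLF12 are Krüppel-like factors, DNA-binding proteins whose zinc fingers recognise CACCC and GC-rich boxes. KLF5 is expressed in the proliferating cells of intestinal crypts, where it promotes proliferation, and enhancers in the noncoding DNA around its gene are duplicated in some human carcinomas. KLF12 was described as a repressor of the gene for the transcription factor AP-2 alpha. In the RefSeq gene list (GRCm38.p6), 0 protein-coding genes lie between Klf5 and Klf12. The 9 genes listed between them are 3 long noncoding RNAs, 5 pseudogenes and 1 small nuclear RNA gene, and the next protein-coding genes on either side are Pibf1 and Prr30. That list is on another genome build than the peaks, so no peak below is assigned to a promoter, intron or gene, and no peak sequence is printed.

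The window held a mixture of lost and gained accessibility. Of its 58 peaks 48 had enough reads to be tested, 5 in the run and 43 outside it. In the lines from primary tumours 10 tested peaks were called lower and 9 were called higher at an adjusted p under 0.05 (edgeR's quasi-likelihood test, adjusted over 36179 peaks). The background over all tested peaks was 6.40% called lower and 8.00% called higher. The 10 lower peaks include the 5 of the run, which were chosen for that, and nothing is read from the count. Outside the run 5 peaks were lower, 9 were higher and 29 were not called. The median log2 fold change, tumour-derived minus naive, was -0.04 over the 43 tested peaks outside the run and -0.01 over all tested peaks. Without naive replicate 2, the deepest library, 6 peaks of the window were called lower and 6 higher.

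**Figure D1:**
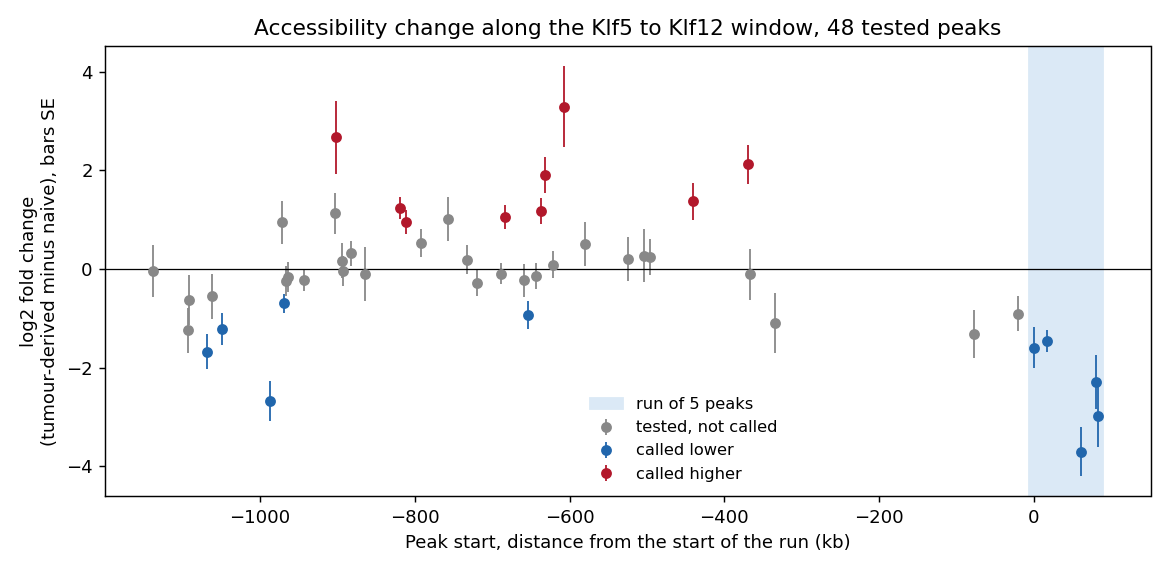
Log2 fold change (y axis, tumour-derived minus naive, bars are SE) of the 48 tested peaks against the distance of each peak's start from the start of the run in kb (x axis). Blue points are the 10 peaks called lower, red points the 9 called higher, grey points the 29 not called, and the shaded band is the run. The 9 red points lie between 4 lower peaks on the left and the run on the right, with 1 lower peak among them.

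Along the window the sign of the log2 fold change alternated through 13 stretches of equal sign. The window is described here by the positions of the first and the last higher peak, which fixes where the 9 higher calls fall and was done after the calls were seen. To the left of the first higher peak 11 of 13 tested peaks had a negative log2 fold change and 4 were called lower. From the first to the last higher peak, chr14:99765524-100298277, 19 of 26 tested peaks had a positive log2 fold change and 1 was called lower. The 19 include the 9 higher peaks, which the choice of the ends puts there, so this count is not evidence of a stretch of gains. Between the last higher peak and the run lay 368 kb with 4 tested peaks, all with negative log2 fold changes from -1.31 to -0.11 and none of them called. In 3 of these 4, every tumour-derived library was below every naive library, an order found at 15.3% of all tested peaks. The choice of the ends keeps every higher call out of this stretch and of the one on the left. Their counts are therefore not evidence of stretches of losses. Of 47 pairs of neighbouring tested peaks in the window, 35 had log2 fold changes of the same sign (74.5%), and 30 of 42 did (71.4%) when the run was left out. The share was 61.1% on chromosome 14 and 58.6% over all peaks. These shares are a description, since neighbouring peaks are not independent and the window was chosen around a run of equal signs.

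Summed signal is given for the run and its surroundings. The run was chosen for its lower calls in these libraries, so its lower sum is part of that choice. In naive replicates 1 to 3 the run held 163, 188 and 155 CPM (reads relative to the scaled size of the library). Its signal was 46.8, 47.6 and 49.8 CPM in primary tumour replicates 1 to 3. The groups did not overlap, and the means were 169 ± 17.0 CPM in naive organoids and 48.1 ± 1.56 CPM in tumour-derived lines (SD, n = 3 each), a 3.51-fold difference. The other 53 peaks of the window summed to 1075, 1185 and 1162 CPM in naive and 1357, 1145 and 1127 CPM in tumour-derived libraries. These ranges overlapped, with means of 1141 ± 58.04 and 1210 ± 128 CPM (SD, n = 3 each). The log2 ratio of means was therefore -1.81 for the run and 0.08 for the rest of the window, and the sign of the second value depends on how it is summarised, as the median of -0.04 above shows.

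Reads of the run made up 13.2%, 13.7% and 11.8% of all window reads in naive replicates 1, 2 and 3. In primary tumour replicates 1, 2 and 3 they made up 3.33%, 3.99% and 4.23%. This share compares peaks within a library and does not depend on the scaling between libraries. Its difference between the groups is part of the choice of the run. The exact (Clopper-Pearson) 95% intervals ran from 10.7% at the lowest to 15.02% at the highest in naive libraries and from 2.85% to 5.10% in tumour-derived libraries, and they cover counting error only.

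**Figure D2:**
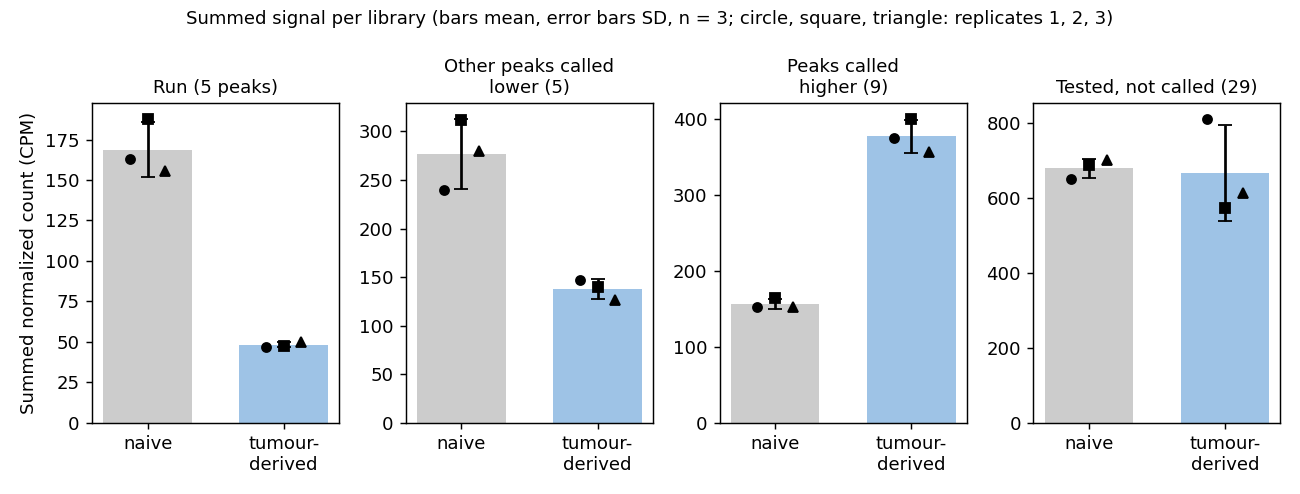
Summed normalized count (y axes, CPM, starting at 0) of 4 sets of window peaks in naive and tumour-derived libraries; bars are group means, error bars SD (n = 3), and circle, square and triangle are replicates 1, 2 and 3. The run went from a mean of 169 to 48.1 CPM and the 9 peaks called higher from 156 to 377 CPM, while the 29 peaks not called summed to 679 and 665 CPM; all 4 sets were formed by the calls, so near-equal sums of the last are part of its choice.

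Losses and gains stood side by side in the summed signal. The 5 lower peaks outside the run summed to 277 ± 36.2 CPM in naive organoids and 138 ± 10.6 CPM in tumour-derived lines. The 9 higher peaks summed to 156 ± 6.70 and 377 ± 22.1 CPM in the same order. Over the whole window the sum was 1310 ± 67.8 CPM in naive organoids and 1258 ± 127 CPM in tumour-derived lines (SD, n = 3 for each of these sums), which differ by less than the spread between replicates. The run and the other called peaks were chosen by their calls, so these sums describe sizes and are not tested.

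The 5 peaks of the run differed in strength and in the size of the loss. The first, chr14:100666715-100667409, had 17.2, 20.9 and 20.9 CPM in naive libraries and 6.27, 4.23 and 9.01 CPM in tumour-derived libraries, in the order of their replicate numbers, which holds for all values below. All tumour-derived values lay below all naive values, with a log2 fold change of -1.60 (SE 0.42). Without naive replicate 2 it was no longer called. The second, chr14:100683716-100685855, was the widest at 2139 bp and the strongest of the run. It had 93.5, 109 and 79.4 CPM in naive libraries and 37.9, 29.6 and 35.1 CPM in tumour-derived libraries, with a log2 fold change of -1.45 (SE 0.22). It kept the most signal in the tumour-derived lines, and its relative loss was the smallest of the 5.

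The other 3 peaks of the run had few reads in the tumour-derived lines, between 2 and 13 a library. They passed the read filter through the naive libraries, where they were high, which favours large losses at weak peaks. The third, chr14:100727961-100728399, had 29.2, 29.8 and 25.2 CPM in naive libraries and 0.856, 4.23 and 1.90 CPM in tumour-derived libraries, from 34, 162 and 59 reads against 3, 8 and 4 reads. Its log2 fold change of -3.70 (SE 0.49), a 12.99-fold difference, was the lowest of the 48 tested peaks of the window. The fourth, chr14:100747490-100747888, had 14.6, 15.6 and 17.5 CPM in naive libraries and 1.14, 6.88 and 2.37 CPM in tumour-derived libraries (log2 fold change -2.30, SE 0.55). The naive values lay close together, and the tumour-derived values were spread. The fifth, chr14:100749919-100750412, had 8.58, 12.7 and 12.4 CPM in naive libraries and 0.570, 2.65 and 1.42 CPM in tumour-derived libraries (log2 fold change -2.97, SE 0.63), from 10, 69 and 29 reads against 2, 5 and 3 reads. At each of these peaks primary tumour replicate 2 was the highest and replicate 1 the lowest of the tumour-derived lines. The order was not the same at the second peak, where replicate 1 was the highest and replicate 2 the lowest. Without primary tumour replicate 2 the log2 fold changes of the third, the fourth and the fifth peak were -4.42, -3.24 and -3.58, and without primary tumour replicate 1 they were -3.19, -1.79 and -2.48.

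**Figure D3:**
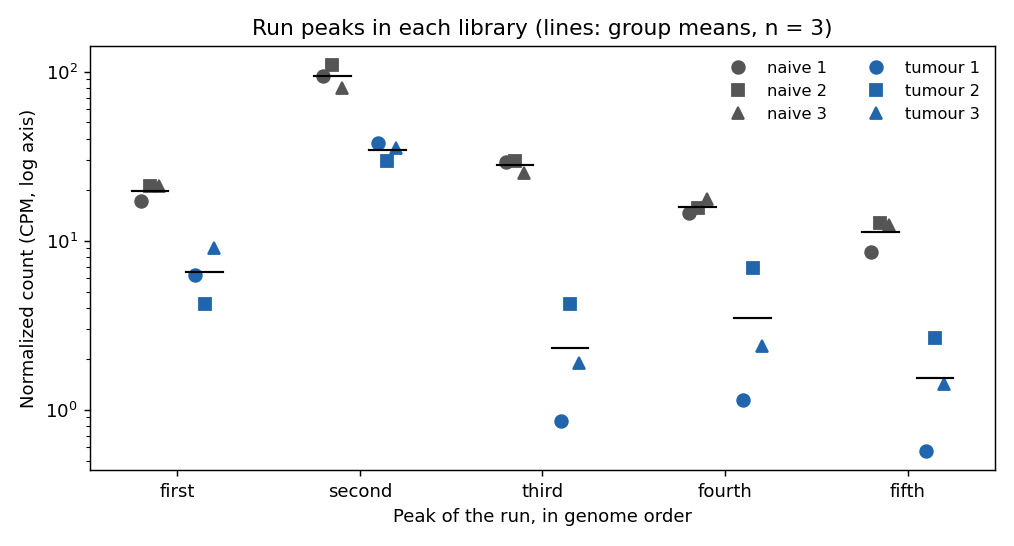
Normalized count (y axis, CPM, log scale) of the 5 run peaks in genome order (x axis) in each library; grey symbols are naive and blue symbols tumour-derived libraries, with circle, square and triangle for replicates 1, 2 and 3 and lines for group means. Grey and blue symbols do not overlap at any of the 5 peaks, which were chosen because they were called lower in these libraries. All tumour-derived libraries lay below all naive libraries at 15.3% of all tested peaks, and nothing is read from the comparison. The blue symbols are spread most at the third, the fourth and the fifth peak, where they lie between 0.570 and 6.88 CPM.

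The second peak held 57.4%, 57.97% and 51.1% of the run's signal in the naive libraries and 81.1%, 62.2% and 70.5% in the tumour-derived libraries. Without it, the other 4 peaks summed to 74.8 ± 4.86 CPM in naive organoids and 13.8 ± 4.64 CPM in tumour-derived lines (SD, n = 3 each), a 5.41-fold difference. The signal left in the run of the tumour-derived lines was thus mostly that of its strongest peak.

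On either side of the run the nearest tested peaks had negative log2 fold changes. The left neighbour, chr14:100646283-100647058, had 23.2, 25.4 and 20.1 CPM in naive libraries and 13.98, 9.53 and 12.8 CPM in tumour-derived libraries. The groups did not overlap there, but the log2 fold change of -0.91 (SE 0.35) was not called. On the right, the window held 1 more peak, at chr14:101054390-101054618, which had between 1 and 7 reads a library and was not tested. The nearest tested peak to the right was beyond the window, at chr14:101459844-101460325, 793 kb from the start of the run. It was called lower, with 20, 62 and 14 reads in naive and 4, 0 and 7 reads in tumour-derived libraries (log2 fold change -2.88, SE 0.71, and -3.90 without primary tumour replicate 3). It too lost its call without naive replicate 2.

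At the other end of the window, 4 peaks called lower lay to the left of all higher peaks. The peak at chr14:99598033-99599310 had 18.9, 39.1 and 38.4 CPM in naive libraries and 11.4, 12.7 and 6.64 CPM in tumour-derived libraries (log2 fold change -1.68, SE 0.36). Naive replicate 1, the shallowest library, was the lowest naive value here. At chr14:99617612-99619276 accessibility was 33.5, 32.9 and 28.2 CPM against 15.4, 9.53 and 15.2 CPM in the tumour-derived lines (log2 fold change -1.22, SE 0.32), a call that was lost without naive replicate 2. At chr14:99679919-99680784 they were 33.5, 26.5 and 27.8 CPM against 4.56, 3.18 and 5.69 CPM. With a log2 fold change of -2.67 (SE 0.40) this peak had the largest loss among tested window peaks outside the run, between those of the fourth and the fifth run peak.

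The strongest peak of the window was the fourth of these, chr14:99697481-99698628. It had 118, 154 and 129 CPM in naive libraries and 78.1, 90.5 and 80.6 CPM in tumour-derived libraries. All tumour-derived values were below all naive values, but the loss was small (1.62-fold, log2 fold change -0.69, SE 0.19). Its call was lost without naive replicate 2, primary tumour replicate 1 or primary tumour replicate 3. The next strong peak to the right, chr14:99723549-99724376, had 54.9, 85.8 and 56.8 CPM in naive and 63.3, 53.4 and 54.5 CPM in tumour-derived libraries. These groups overlapped, and the log2 fold change of -0.22 (SE 0.23) was not called.

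The 9 higher peaks lay over 533 kb between these losses and the run, and in each of them every tumour-derived library was above every naive library. Over all tested peaks 15.5% showed this order. The 9 peaks were chosen by their calls, which favour that order, so nothing is read from the comparison. Their log2 fold changes ran from 0.95 to 3.29, with the strongest peaks among the smaller changes. The strongest in tumour-derived lines, chr14:99848057-99849590, had 39.5, 32.7 and 35.4 CPM in naive libraries and 71.3, 91.5 and 87.7 CPM in tumour-derived libraries (log2 fold change 1.23, SE 0.22). Its neighbour, chr14:99855171-99856505, had 42.9, 54.0 and 28.6 CPM against 66.5, 103 and 77.3 CPM (log2 fold change 0.95, SE 0.25). The gap between the groups was narrow there, and the call was lost without naive replicate 3 or without primary tumour replicate 2.

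At chr14:99983047-99983762 the naive values were nearly equal, 28.3, 30.1 and 29.9 CPM, and those of the tumour-derived lines 68.7, 51.9 and 62.6 CPM (log2 fold change 1.05, SE 0.24). A close pair of peaks followed further right. The first, chr14:100029623-100032015, had 19.7, 26.1 and 23.5 CPM in naive and 63.9, 50.3 and 44.1 CPM in tumour-derived libraries (log2 fold change 1.17, SE 0.26). The second, chr14:100035124-100036324, had 6.86, 6.43 and 11.1 CPM against 33.9, 33.9 and 23.2 CPM (log2 fold change 1.90, SE 0.37). Within this stretch the single lower peak, chr14:100012710-100013666, lay to the left of the pair and had 36.0, 59.3 and 56.8 CPM in naive and 37.4, 24.3 and 18.0 CPM in tumour-derived libraries. It was the only called peak of the window whose groups overlapped (log2 fold change -0.93, SE 0.28), and its call was lost without naive replicate 2, naive replicate 3, primary tumour replicate 2 or primary tumour replicate 3.

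The highest log2 fold changes belonged to weak peaks with few naive reads. Such peaks passed the read filter through the tumour-derived libraries, where they were high. That favours large fold changes at weak peaks, so their rank is a description only. At chr14:100059937-100060329 the reads were 0, 4 and 2 in naive and 17, 15 and 16 in tumour-derived libraries. The fitted log2 fold change of 3.29 (SE 0.82) moves with edgeR's prior count, and the call was lost without naive replicate 2. At chr14:99765524-99765857 the reads were 0, 5 and 9 in naive and 72, 11 and 11 in tumour-derived libraries, or 20.5, 5.82 and 5.22 CPM in the latter. Primary tumour replicate 1 stood far above the other tumour-derived lines at this peak. The log2 fold change was 2.67 (SE 0.74) in all libraries, 1.70 and not called without primary tumour replicate 1, not called without naive replicate 2, and 3.85 without naive replicate 3.

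The last of the higher peaks before the long gap were better covered. At chr14:100225724-100226355 accessibility was 8.58, 8.08 and 9.82 CPM in naive and 20.2, 28.0 and 20.4 CPM in tumour-derived libraries (log2 fold change 1.37, SE 0.38), a call lost without naive replicate 2 or primary tumour replicate 2. At chr14:100296758-100298277 it was 6.01, 4.23 and 8.54 CPM against 24.0, 28.0 and 27.98 CPM (log2 fold change 2.12, SE 0.40). The latter peak marks the right end of the gains, and the peak that follows it, chr14:100299909-100300395, had a log2 fold change of -0.11 (SE 0.52).

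**Figure D4:**
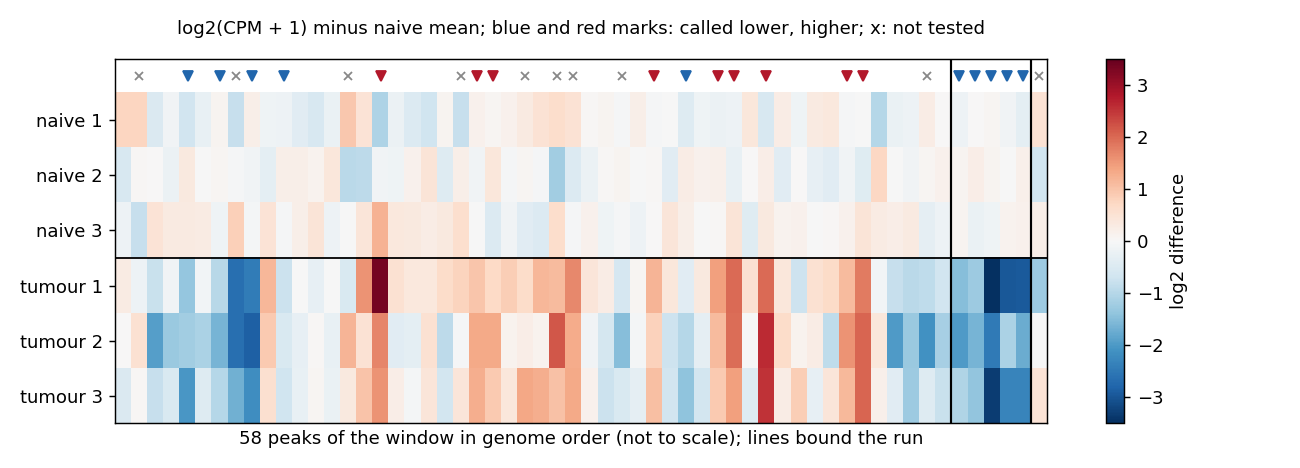
Difference of log2(CPM + 1) from the naive mean (colour, red higher and blue lower) for all 58 peaks of the window in genome order (x axis, not to scale) in each of the 6 libraries (rows). Marks above the map show the peaks called lower (blue) or higher (red) and the 10 peaks not tested (x). The vertical lines bound the run, which was chosen for its lower calls. The 3 tumour-derived rows are blue throughout the run.

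The 10 untested peaks all lay outside the run and held between 0 and 32 reads a library. Their median width was 313 bp, against 865 bp for the 43 tested peaks outside the run. When edgeR was run without the filter, 1 of the 10 was called lower and 0 were called higher. The lower one was chr14:99625172-99625397, with 3, 28 and 24 reads in naive and 0, 0 and 2 reads in tumour-derived libraries. The groups did not overlap at 5 of the 10, with the tumour-derived libraries below at 3 and above at 2. Over all tested peaks the shares were 15.3% below and 15.5% above, but untested peaks have fewer reads and no share for them is given. The share called over all peaks without the filter is not given either, so nothing is read from these counts. The 2 peaks with the tumour-derived libraries above were close together. At chr14:99914682-99914993 there were 3, 0 and 6 reads in naive and 14, 18 and 8 in tumour-derived libraries. At chr14:99916945-99917195 there were 2 reads in each naive library and 18, 7 and 8 in the tumour-derived libraries.

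Some strong peaks of the stretch with gains had nearly equal values in both groups. The peak at chr14:99977936-99980330, among the 5 strongest outside the run, had 80.6, 69.1 and 61.9 CPM in naive and 73.6, 66.7 and 56.0 CPM in tumour-derived libraries. The groups overlapped, and the log2 fold change was -0.10 (SE 0.21). Its sign changed without primary tumour replicate 3, when it was 0.02.

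Replicate spread is given by group as a description, since a call favours peaks with little spread. The median SD of log2(CPM + 1) over the 5 run peaks was 0.16 in naive and 0.61 in tumour-derived libraries. For the 43 tested peaks outside the run the medians were 0.34 and 0.36, and over all tested peaks 0.35 and 0.36. The 5 other lower peaks of the window, also formed by their calls, had 0.20 and 0.36. The run peaks with the widest spread were those with 2 to 13 reads in each tumour-derived library, where counting error is large. The edgeR dispersion, the squared coefficient of variation between replicates beyond counting error, had a median of 0.0936 in the run, 0.0768 in the other tested peaks of the window and 0.0918 over all tested peaks.

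Width and score did not enter the test, but whether they are independent of the calls was not tested. The run peaks are described by both. Their median width was 493 bp in the run, where widths ran from 398 to 2139 bp, against 705 bp in the rest of the window and 746 bp over all peaks. All run peaks had enough reads to be tested, which the other sets do not share. Among tested peaks alone the median width was 865 bp in the rest of the window and 844 bp over the series. The authors' peak score, which no label defines, had a median of 27.3 in the run, 25.2 in the rest of the window and 21.8 over all peaks. Among tested peaks alone the median score was 26.9 in the rest of the window and 28.8 over the series, so the run did not stand out. Scores in the run ran from 5.65 to 48.8, and those of the other window peaks from 5.39 to 232.

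Likeness to the run was measured as Pearson's r between log2(CPM + 1) of a peak and the summed run over the 6 libraries, as a description. The 3 peaks outside the run with the highest values were chr14:99679919-99680784 (r = 0.98), chr14:99697481-99698628 (r = 0.95) and chr14:99617612-99619276 (r = 0.94). All of them are lower peaks at the far left of the window, about a megabase from the run. The next values were almost as high and belonged to uncalled peaks much closer to it. These were the left neighbour, chr14:100646283-100647058 (r = 0.937, against 0.942 for the third peak above), and chr14:100588761-100589176 (r = 0.924). The 6 points share libraries and depth, and the difference between the groups contributes to each value.

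Chromosome 14 as a whole did not move with the run. Relative to the naive mean, the median log2 difference of the run peaks was -2.94, -1.73 and -2.32 in primary tumour replicates 1, 2 and 3. For the other tested peaks of the window it was 0.38, -0.07 and -0.07, and for chromosome 14 it was 0.12, 0.06 and 0.05. Primary tumour replicate 1, the deepest tumour-derived library, had the highest value outside the run, and its 29 uncalled window peaks summed to 811 CPM against 574 and 611 CPM in replicates 2 and 3. The part of depth in this was not tested. In the adjacent interval of the same length to the left of the window, the 6 tested peaks all had negative log2 fold changes, with a median of -0.56, and 0 were called by edgeR. In that to the right, 1 of 23 tested peaks was called lower and 1 higher, with a median log2 fold change of 0.05. Over all tested peaks 6.40% were called lower and 8.00% higher, and with so few peaks nothing is read from these counts.

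Total counts in peaks ran from 1185356 in naive replicate 1 to 5987545 in naive replicate 2. The run held 190 to 1023 reads in naive and 90 to 164 reads in tumour-derived libraries.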

How the data were processed

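ATAC-seq libraries were made from 50000 cells each and sequenced with 2 reads of 75 bases per fragment, per the labels' protocols. The authors deposited 1 table of raw read counts per peak for a peak set shared by all 6 libraries. The submitters' processing notes name Bowtie, Picard, SAMtools, MACS2, bedtools and the build mm9. Versions, roles, the rule for keeping peaks, duplicate handling and any Tn5 offset are not stated in the sources used here. All of them could alter counts. Coordinates are printed as the table gives them.

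Counts were tested in R 4.3.3 with edgeR 4.0.16 (filterByExpr, TMM scaling, robust quasi-likelihood F test, group as the sole term, 2-sided, Benjamini-Hochberg adjustment over 36179 peaks, called at an adjusted p under 0.05). The test was also run on simulated counts in which few peaks were changed. That setting differs from these data, so it does not show the error rate here. CPM are counts relative to the TMM-scaled library size, and log2(CPM + 1) was used for differences from the naive mean. The SE is the log2 fold change divided by the root of F.

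Named peaks were the run, called window peaks, the tested neighbours of the run, the 5 strongest and the 3 most like the run. The members and lists were chosen with earlier results of these data known. As alternatives, libraries were scaled by total count or by size factors of DESeq2 1.42.0, its Wald test was run, and the counts were refitted with 2 other filters, a replicate block, each library left out, trended offsets, a chromosome 14 offset and a test against a fold change of 2. Same-numbered libraries had correlations of deviations of -0.24, -0.11 and 0.00475 and were not taken as pairs.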

Additional observations from a re-analysis of the deposited data

How the results depend on the processing

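Scaling, DESeq2, no filter, trended offsets and the chromosome 14 offset gave 10 to 12 lower and 9 higher peaks in the window, against 10 and 9. The replicate block gave 9 lower and 8 higher, and the numbers do not pair the libraries. Requiring 20 counts in 3 or more libraries called 3 run peaks, because it left the other two untested. Tested against a 2-fold change, 3 peaks were lower and 1 was higher, 2 of them in the run, since a larger difference is required. Leaving out 1 library gave 6 to 11 lower, 6 to 9 higher and 4 to 5 called run peaks, with the lowest values of all 3 without naive replicate 2; the cause was not tested. Apart from the fold-change test, 7 of the 14 called window peaks outside the run kept their call wherever they were tested. Those 14, like the run, were named by their calls in these same libraries. No share kept over all called peaks is given, so these counts show nothing about stability.

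The log2 ratio of the run's sum ran from -1.88 to -1.73 with 1 library left out, that of the rest of the window from 0.00302 to 0.15, and their difference, -1.90 with all libraries, from -1.97 to -1.79. Taking medians of peak log2 fold changes in place of sums gave -2.30, -0.0386 and -2.26, since medians do not weight peaks by signal. Without the strongest run peak, an alternative added after seeing the data, the run's ratio was -2.43 and the difference -2.52. The chromosome 14 offset gave -0.01 for the rest of the window. Uncalled values near 0 changed sign: with 1 library left out, chr14:99723549-99724376 ran from -0.34 to 0.0332 (without naive replicate 2) and chr14:99977936-99980330 from -0.19 to 0.0180 (without primary tumour replicate 3), and the latter was 0.0519 with trended offsets. Low read counts limit the run in tumour-derived libraries, where 3 of its peaks have 2 to 13 reads and counting error is large.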
